A study of Mus musculus with 12 samples.

Results

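The genes described here encode 38 dioxygenases that use iron and 2-oxoglutarate, the class of enzymes to which the target of the drug IOX2 belongs. They were taken by gene symbol from a list of 38 names among the 35434 genes of the count table. All 38 were in the table, and all 38 passed the filter on low counts, which kept 15269 genes for testing. By role, the list holds 13 histone lysine demethylases, 9 collagen hydroxylases, 8 oxygenases of DNA and RNA, 7 hydroxylases of other proteins and 1 oxygenase of branched lipids. Egln1, Egln2 and Egln3, the prolyl hydroxylases of hypoxia-inducible factor (HIF), are not on it. RNA was sequenced in bulk from 12 tumours grown under the skin from 4T1 cells, a mammary carcinoma line of the mouse used as a model of triple-negative disease. Each tumour came from a different female BALB/c mouse that was 6-8 weeks old, and each of the 4 groups had 3 tumours. HI mice were kept in a hypobaric chamber at a simulated 3500 m and received IOX2. HC mice were kept in the same kind of chamber and received vehicle. MI mice lived at the ambient altitude of about 1500 m and received IOX2, and MC mice lived there and received vehicle. All mice had 3 days to acclimatize before the cells were injected under the skin of the back. IOX2 at 10 mg/kg or vehicle went into the abdomen each day for 10 days from day 9 after inoculation, and tumours were taken on study day 22. Chamber housing went with altitude in every mouse, so the effects of both cannot be told apart, and "altitude" below stands for both.

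Enzymes of this class split molecular oxygen, place an oxygen atom on their substrate and use the other to turn 2-oxoglutarate into succinate. Some of them sense oxygen in this way. When oxygen is short the HIF prolyl hydroxylases slow down, HIF escapes destruction, and its target genes are switched on. Several members of the class are themselves known as HIF target genes, among them the collagen hydroxylases P4ha1, P4ha2, Plod1 and Plod2 and the histone demethylases Kdm3a and Kdm4b. IOX2 binds the active site of PHD2, the product of Egln1, in the place of 2-oxoglutarate. The question that the groups allow is whether simulated altitude, IOX2 or both went with a different transcript level of the other enzymes of the class. Transcripts were measured, so the values below say nothing of enzyme activity. In bulk tumour RNA, fewer cells of a type and less RNA per cell cannot be told apart.

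Library totals ran from 31661685 counts in HC1 to 40019343 counts in MI2, and the 38 genes together took 0.234% to 0.266% of the counts of a library. All 7 epithelial markers of the tumour cells were detected, with medians over the 12 libraries of 2.69 to 1229 CPM (counts scaled by the library total and its TMM factor). The marker transcripts of other cell types were unequal between libraries. The 6 markers of B cells and plasma cells summed to 696 CPM in MI1 and to 2.15 to 18.6 CPM in the other 11 libraries. The 7 fibroblast markers summed to 8370.1 CPM in HC1 and 7155 CPM in MI1, and to 4684 to 6353 CPM in the other 10. The 6 skeletal muscle markers summed to 408 CPM in MI1 and 246 CPM in HC1, and to 24.9 to 183 CPM in the other 10. The 6 endothelial markers summed to 225 to 248 CPM in HI tumours, 279.6 to 344 in HC, 304 to 418 in MI and 312 to 323 in MC. The 5 red-cell markers summed to 166 to 315 CPM in HI, 56.3 to 105 in HC, 87.5 to 123 in MI and 19.7 to 21.0 in MC, and all 5 were called higher with altitude and with IOX2, each averaged. The 6 fat-cell markers had a median log2 change of 2.01 for altitude averaged, with 0 called and 6 of 6 at an unadjusted p under 0.05. The part of these cells in the values of the 38 genes was not tested.

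The class was expressed broadly in these tumours, with a wide range of levels between genes and a narrow range between tumours. Levels between genes are compared in FPKM, the deposited values per length of gene. The order depends on those lengths, which are 39982 bases for Jmjd1c and 1757 for Jmjd6. In an older GENCODE annotation these genes have 17822 and 4698 exon bases. By its median over the 12 tumours, the most abundant member was P4ha1, which carries the active site of collagen prolyl 4-hydroxylase, at 52.2 FPKM. It was followed by Plod3, a lysyl hydroxylase of collagen, at 51.1 FPKM, and by Phyh, the peroxisomal enzyme that starts the breakdown of phytanic acid, at 40.9 FPKM. The ranges of P4ha1 and Plod3 overlapped, at 40.1 to 65.4 FPKM and 44.1 to 57.7 FPKM, so their order is not set by these data. Among the oxygenases of nucleic acids, Alkbh5 and Fto, which remove methyl groups from adenine in RNA, had the highest medians, 25.1 and 20.4 FPKM. Among the histone demethylases, Kdm2a and Kdm3a led with 19.5 and 18.7 FPKM. In all, 16 of the 38 members had a median of at least 10 FPKM, and 2 had a median under 1 FPKM. Those 2 were Kdm8, at 0.915 FPKM, and Tet1, an oxidase of methylcytosine in DNA, at 0.0817 FPKM. Tet1 had 30 to 86 counts per library, so its changes are the least precise of the class, whereas its relatives Tet2 and Tet3 were at 1.64 and 4.28 FPKM.

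**Figure D1:**
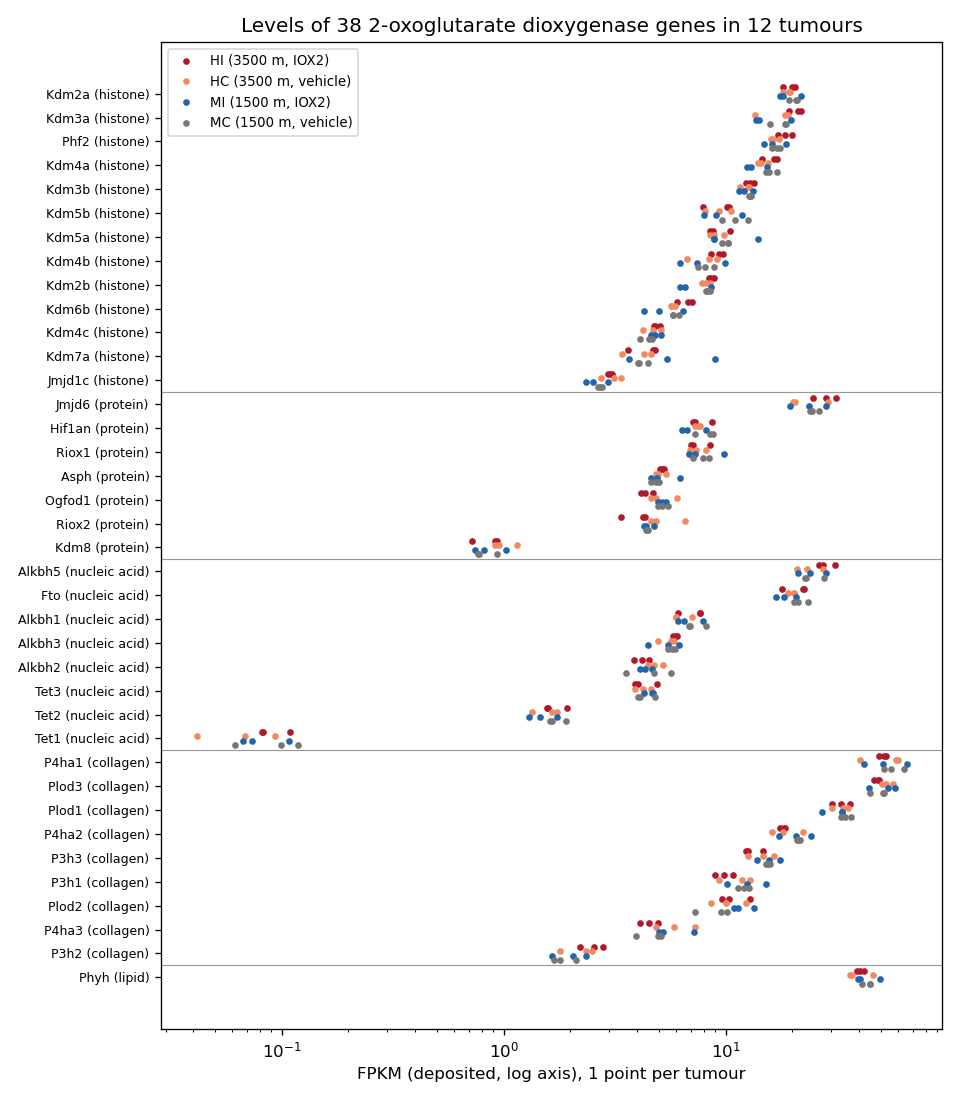
FPKM of each of the 38 genes (log axis), with 1 point for each of the 12 tumours, coloured by group and ordered by role and then by median level. The points of 1 gene lie close together, whereas the medians of different genes run from 0.0817 FPKM for Tet1 to 52.2 FPKM for P4ha1.

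No member of the class passed an adjusted p of 0.05 in any of the 7 comparisons. The comparisons were altitude with IOX2 (HI against MI), altitude with vehicle (HC against MC), IOX2 at altitude (HI against HC), IOX2 at ambient altitude (MI against MC), altitude and IOX2 each averaged over the other factor, and the altitude by IOX2 interaction. In edgeR's quasi-likelihood fit of all 12 libraries, 0 of 38 members were called in each. Of all 15269 genes tested, the same rule called 0% in HI against MI, in HC against MC and in HI against HC, 0.0262% in MI against MC, 0.498% for altitude averaged, 0.0393% for IOX2 averaged and 0% for the interaction. With the replicate number as a block, HC against MC had 13 genes called, 0 of them members. A count of 0 among 38 genes is close to these shares of the whole table. DESeq2 also called 0 of the 38 members in each comparison, while it called 2.35% of all genes in HI against MI, 1.95% in HC against MC, 0.0966% in HI against HC, 0.12% in MI against MC, 5.35% for altitude averaged, 0.0559% for IOX2 averaged and 0.219% for the interaction. Limma-voom called 0 members too, and 0.131% of all genes for altitude averaged, 0.0262% for IOX2 averaged and 0% in the 5 other comparisons. Log2 changes below are those of edgeR, with their standard error (SE).

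Without adjustment, a p under 0.05 was reached by 7 of 38 members (18.4%) in HI against MI, when 15.2% of all genes reached it. Of these, 4 were higher and 3 lower in HI, against 6.77% and 8.43% of all genes. In HC against MC it was reached by 0 members, against 12% of all genes. In HI against HC it was reached by 3 members (7.89%), all lower in HI, against 4.85% of all genes in either direction and 2.51% with lower values. In MI against MC it was reached by 2 (5.26%), against 9.39% of all genes, with 1 member higher (5.61% of all genes) and 1 lower (3.78%). For altitude averaged the number was 5 (13.2%), against 17.3% of all genes, for IOX2 averaged 0, against 5.12%, and for the interaction 3 (7.89%), against 8.21%. No test was made of the gap between these shares, and a share near that of all genes is not a result about the class.

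The values of the groups separated for 15.8% of members in HI against MI and 10.5% in HC against MC. The shares were 13.2% in HI against HC and 5.26% in MI against MC. The gaps between these and the shares of all genes below were not tested. In HI against MI the 3 values of HI lay wholly above or below those of MI for 6 members, against 14.6% of all genes. Jmjd1c and Kdm4a were higher in HI (8.02% of all genes were), and Ogfod1, P3h1, P3h3 and Riox2 were lower in HI (6.61%). In HC against MC this was so for 4 members, against 21.7% of all genes, with Asph, Kdm8 and Riox2 higher in HC (10.3% of all genes were) and Alkbh1 lower in HC (11.4%). In HI against HC it was so for 5 members, Alkbh2, Kdm8, Ogfod1, Plod3 and Riox2, all lower in HI, against 11.4% of all genes in either direction and 5.61% with lower values. In MI against MC it was so for 2 members, against 11.1% of all genes, with Plod2 higher in MI (4.75% of all genes were) and Fto lower in MI (6.32%). With 6 tumours on each side, 0 members separated by altitude, against 1.95% of all genes, and 0 by IOX2, against 0.177%. HI against HC and HC against MC share the HC tumours, and HI against MI and HI against HC share the HI tumours.

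The 95% interval of the log2 change, taken gene by gene and not adjusted for the number of genes, stayed within a 2-fold change in either direction for 37 of 38 members in each comparison of 2 groups and for 38 of 38 in both averages. The member outside was Kdm7a in HI against MI (-1.12 to 0.11) and in MI against MC (-0.03 to 1.19), and Tet1 in HC against MC (-1.26 to 0.35) and in HI against HC (-0.39 to 1.23). For the interaction, whose error is larger, the interval stayed within those limits for 35 of 38 members. The interval stayed within 0.5 on the log2 scale for 27 members in HI against MI, 29 in HC against MC, 27 in HI against HC and 31 in MI against MC, for 35 in each average, and for 11 of 38 for the interaction. The median SD of log2 CPM within groups was 0.16 over the members and 0.20 over all genes tested, with no matching for level. Between the lowest and highest of the 12 tumours, 20 members differed by less than 1.5 times, and only Kdm7a and Tet1 differed by at least 2 times.

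**Figure D2:**
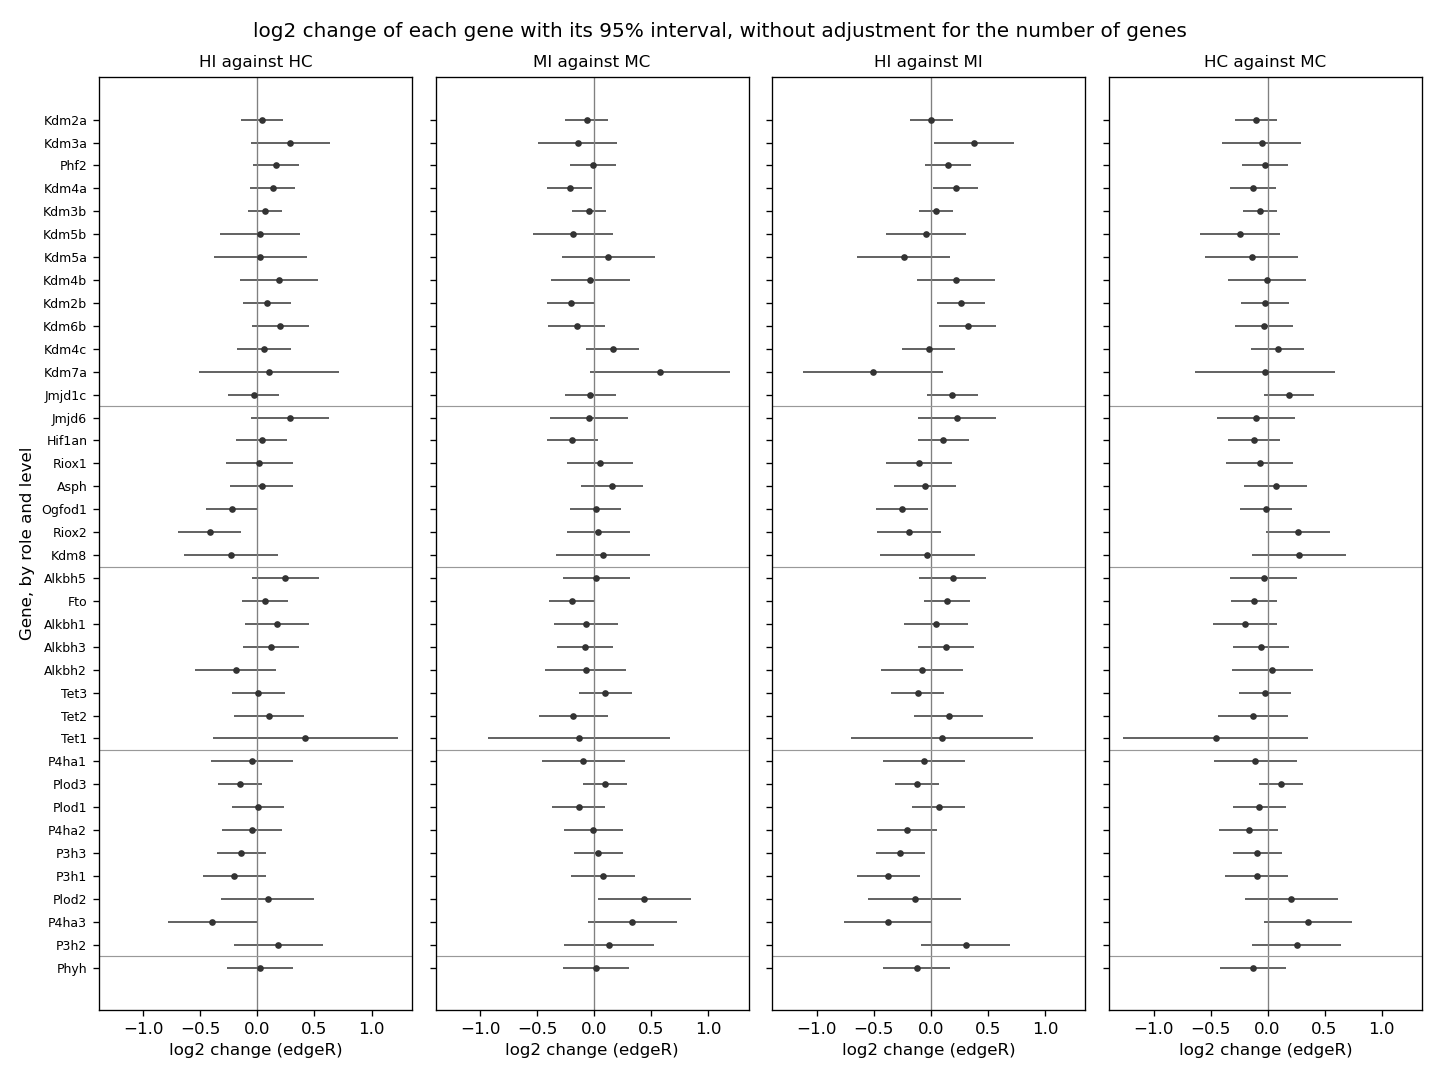
The log2 change of each gene (points) with its 95% interval (bars) in the 4 comparisons of 2 groups, from edgeR, with genes in the same order of role and level in every panel. Intervals are not adjusted for the number of genes, and most cross 0. The widest intervals are those of Tet1 and Kdm7a.

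The median change of the members lay close to that of all genes in each comparison. In HI against MI, 19 members were above 0 and 19 below, with a median log2 change of -0.01, which was also the median of all genes. In HC against MC, 10 were above 0 and 28 below, with a median of -0.06 against -0.01 over all genes. In HI against HC, 27 were above 0 and 11 below, with a median of 0.04 against 0.002 over all genes. In MI against MC, 17 were above 0 and 21 below, with a median of -0.02 against 0.005 over all genes. These comparisons are not independent, since HC against MC and HI against HC both hold the HC tumours. Single libraries stood at the ends of the range. HC1 was the lowest library for 11 members and MI1 for 11, whereas HI1 was the highest for 9, MI3 for 7 and MC3 for 6.

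**Figure D3:**
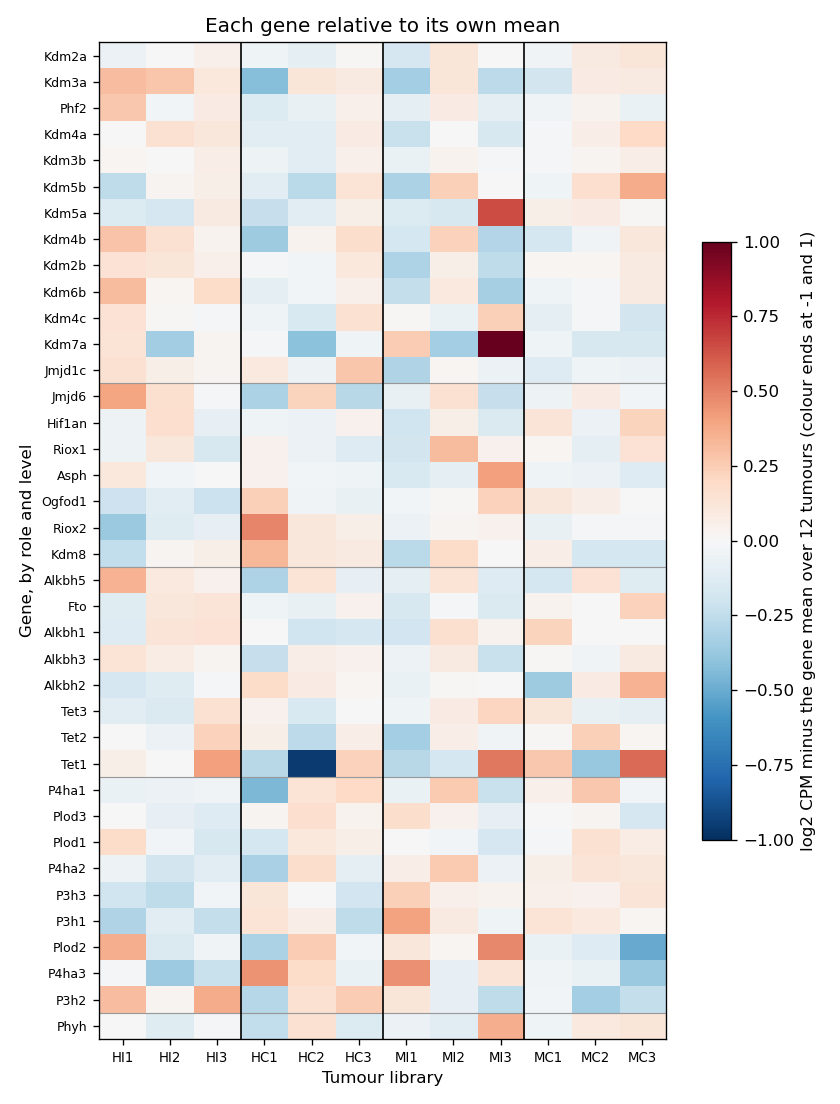
Log2 CPM of each gene minus its mean over the 12 tumours, with genes in rows by role and level and tumours in columns in the order HI, HC, MI and MC. Red is above and blue below the mean of the gene, and the colour ends at -1 and 1. HC1 and MI1 carry the most low values, and MI3 stands out for Kdm5a and Kdm7a.

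The histone lysine demethylases, which remove methyl groups from histone tails, had 4 of 13 members at an unadjusted p under 0.05 in HI against MI, all with higher values in HI (6.77% of all genes reached this with higher values and 15.2% in either direction), and 0 of 13 called in any comparison. Their median log2 change was 0.15 in HI against MI with 9 of 13 above 0, -0.03 in HC against MC with 2 above 0, 0.08 in HI against HC with 12 above 0, and -0.05 in MI against MC with 3 above 0. Of all genes, 47.8% were above 0 in HI against MI and in HC against MC, 50.4% in HI against HC and 50.8% in MI against MC. Kdm6b, which erases the repressive mark that Polycomb enzymes place on histone H3, had 81.2, 66.1 and 74.3 CPM in HI tumours, 61.1, 64.2 and 67.6 in HC, 55.3, 69.8 and 51.9 in MI, and 63.3, 64.5 and 69.3 in MC. Its lowest values were those of MI3 and MI1, while MI2 lay above all MC tumours and above HI2, so HI and MI overlapped. The log2 change in HI against MI was 0.32 (SE 0.11, adjusted p = 0.262). Kdm2b, which demethylates histone H3 and brings Polycomb repressors to CpG islands, had 56.9, 55.8 and 53.1 CPM in HI tumours, 50.7, 50.3 and 55.4 in HC, 41.5, 53.4 and 43.2 in MI, and 52.0, 52.2 and 54.8 in MC. Again MI1 and MI3 were low, and MI2 was just above the lowest HI tumour. Its log2 change was 0.26 (SE 0.10, adjusted p = 0.269) in HI against MI and -0.20 (SE 0.10, adjusted p = 0.492) in MI against MC. Without MI2 these 2 genes passed in HI against MI, Kdm2b with 0.39 (SE 0.08, adjusted p = 0.0372) and Kdm6b with 0.46 (SE 0.10, adjusted p = 0.0399), in a fit that called 520 genes against 0 with all libraries. No other library left out brought any member past the threshold.

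Kdm4a, which erases marks of silent chromatin from histone H3, had 76.7, 85.4 and 83.1 CPM in HI tumours, 71.1, 71.4 and 81.0 in HC, 65.6, 76.4 and 68.6 in MI, and 75.9, 80.4 and 87.9 in MC. HI and MI did not overlap, by a margin of 76.7 CPM in HI1 against 76.4 CPM in MI2, and HI overlapped with MC. The log2 change was 0.22 (SE 0.09, adjusted p = 0.302) in HI against MI, -0.21 (SE 0.09, adjusted p = 0.492) in MI against MC, and 0.35 (SE 0.13, adjusted p = 0.596) for the interaction. Jmjd1c, a relative of Kdm3a, had 126, 119 and 116 CPM in HI tumours, 122, 110.0 and 138 in HC, 92.3, 115 and 109 in MI, and 104, 111 and 109.6 in MC. The HI tumours all lay above the MI tumours, by 116 CPM in HI3 against 115 CPM in MI2, and HC3 was the highest and MI1 the lowest library. Over 6 tumours a side it had the smallest p of the class for altitude, with a log2 change of 0.19 (SE 0.07, adjusted p = 0.214), and its change in HC against MC was 0.19 (SE 0.10, adjusted p = 0.498). Without HC3, the change in HC against MC was 0.10.

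Kdm5b, which erases the methyl mark of active promoters, had 66.7, 81.4 and 83.2 CPM in HI tumours, 74.0, 66.0 and 87.9 in HC, 64.0, 94.0 and 80.0 in MI, and 77.3, 89.5 and 103 in MC. Its HC and MC tumours overlapped, and the log2 change was -0.24 (SE 0.16, adjusted p = 0.591) in HC against MC. Kdm4c, a close relative of Kdm4a, had 33.5, 30.4 and 30.0 CPM in HI tumours, 29.4, 27.2 and 33.7 in HC, 30.4, 29.0 and 35.8 in MI, and 28.5, 29.9 and 26.6 in MC. HI overlapped with HC and MI with MC, MI3 was the highest library, and the log2 change for IOX2 averaged was 0.11 (SE 0.08, adjusted p = 0.759). Kdm7a, which erases repressive marks from histone H3, had 47.5, 33.9 and 44.1 CPM in HI tumours, 42.7, 32.6 and 41.9 in HC, 51.5, 34.2 and 92.8 in MI, and 41.9, 38.7 and 38.8 in MC. MI3 was far above every other tumour, whose highest value was 51.5 CPM in MI1. The log2 change in MI against MC was 0.58 (SE 0.28, adjusted p = 0.492) with MI3 and 0.11 without it, and for IOX2 averaged 0.34 (SE 0.20, adjusted p = 0.759) with MI3 and 0.10 without it. Kdm2a, Kdm3b and Phf2, which also demethylate histone H3, ran from 148 to 181 CPM, from 82.9 to 93.7 CPM and from 82.0 to 108 CPM. Kdm5a was at 175 CPM in MI3 and at 94.4 to 118 CPM in the other 11 tumours.

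The hydroxylases of other proteins include the enzymes that modify HIF, ribosomal proteins and the decoding machinery. Riox2, also called MINA, a ribosomal histidine hydroxylase, had the smallest p of the class in HC against MC without a block, in HI against HC and for IOX2 averaged. It had 11.1, 13.2 and 13.5 CPM in HI tumours, 20.1, 15.5 and 15.0 in HC, 13.8, 14.6 and 14.8 in MI, and 13.7, 14.3 and 14.2 in MC. The HC tumours lay above the HI and the MC tumours without overlap, and the HI tumours lay below the MI tumours without overlap, in steps as small as 13.5 CPM in HI3 against 13.8 CPM in MI1. HC1 stood apart from all others. The log2 change was -0.42 (SE 0.13, adjusted p = 0.964) in HI against HC, 0.26 (SE 0.13, adjusted p = 0.439) in HC against MC, -0.19 (SE 0.09, adjusted p = 0.759) for IOX2 averaged, and -0.46 (SE 0.18, adjusted p = 0.596) for the interaction. Without HC1 the change was -0.27 in HI against HC, 0.12 in HC against MC and -0.12 for IOX2 averaged. In the older GENCODE annotation at hand, 22.4% of the exon bases of Riox2 also lie in exons of Crybg3 on the opposite strand. Whether counting used the strand is not given in the sources used here, so reads of both could be mixed. The same holds for Riox1 (31.9% of exon bases shared with genes of the opposite strand), Alkbh2 (29.5%), P3h2 (28.4%), Kdm3b (24.6%), Asph (14.7%) and Plod3 (11.9%).

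Ogfod1, which hydroxylates a prolyl residue of the small ribosomal subunit, had 23.9, 25.6 and 23.7 CPM in HI tumours, 32.5, 27.0 and 26.2 in HC, 27.1, 27.8 and 32.4 in MI, and 29.8, 28.8 and 27.7 in MC. All 3 HI tumours lay below all 9 others, and HC1 and MI3 were the highest. This separation was seen after the values were known, and the share of all genes with such a separation was not counted. The log2 change was -0.25 (SE 0.10, adjusted p = 0.295) in HI against MI, -0.23 (SE 0.10, adjusted p = 0.964) in HI against HC and -0.11 (SE 0.07, adjusted p = 0.759) for IOX2 averaged. Without HC1 the changes were -0.12 in HI against HC and -0.05 for IOX2 averaged. Jmjd6, a lysyl hydroxylase that acts on splicing factors, had 57.2, 48.7 and 42.9 CPM in HI tumours, 35.1, 50.9 and 35.9 in HC, 41.3, 48.3 and 37.1 in MI, and 42.1, 46.1 and 42.7 in MC. HI1 was the highest and HC1 the lowest, and HI and HC overlapped through HC2. The log2 change in HI against HC was 0.29 (SE 0.16, adjusted p = 0.964), and it was 0.48 without HC2 and 0.17 without HI1.

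Hif1an encodes FIH, the asparaginyl hydroxylase that blocks the transactivation domain of HIF. It had 45.5, 52.9 and 44.5 CPM in HI tumours, 45.6, 45.2 and 48.6 in HC, 41.0, 49.0 and 42.6 in MI, and 51.5, 45.1 and 54.8 in MC. All groups overlapped, and the log2 change was 0.11 (adjusted p = 0.611) in HI against MI, -0.12 (adjusted p = 0.709) in HC against MC, 0.04 (adjusted p = 0.998) in HI against HC and -0.19 (adjusted p = 0.492) in MI against MC. The 95% interval for IOX2 averaged was -0.24 to 0.08 and that for altitude averaged was -0.16 to 0.15. Asph, which hydroxylates aspartate and asparagine in growth-factor-like domains, was at 137 CPM in MI3 and 92.8 to 111 CPM in the others. Kdm8, whose product is now regarded as an arginyl hydroxylase, had 2.80 to 4.25 CPM, and Riox1, another ribosomal histidine hydroxylase, had 15.8 to 22.4 CPM.

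Among the oxygenases of DNA and RNA, 0 of 8 members had an unadjusted p under 0.05 in any comparison of 2 groups. Of all genes, 15.2% did in HI against MI and 12% in HC against MC. The shares were 4.85% in HI against HC and 9.39% in MI against MC. With 8 genes, a count of 0 is near these shares and is not a result about these enzymes. Fto had 83.7, 98.7 and 99.5 CPM in HI tumours, 88.6, 86.6 and 93.8 in HC, 81.8, 90.7 and 82.4 in MI, and 93.7, 91.3 and 107 in MC. Its MI tumours lay below its MC tumours without overlap, though MI2 and MC2 were 90.7 and 91.3 CPM. The log2 change in MI against MC was -0.20 (SE 0.09, adjusted p = 0.492), and -0.12 without MC3. Alkbh5, the other demethylase of adenine in RNA, had 193, 162 and 156 CPM in HI tumours, 122, 166 and 143 in HC, 142, 166 and 139 in MI, and 134, 168 and 139 in MC. HI1 was the highest library and HC1 the lowest, and HI and HC overlapped through HC2. The log2 change in HI against HC was 0.24 (SE 0.13, adjusted p = 0.964), and 0.14 without HC1. Alkbh1, which acts on transfer RNA and DNA, had 12.3, 14.6 and 14.8 CPM in HI tumours, 13.4, 11.7 and 11.9 in HC, 11.7, 15.0 and 13.7 in MI, and 15.6, 13.4 and 13.4 in MC. The HC tumours lay just below the MC tumours, with HC1 and MC3 the same to 3 digits. The log2 change in HC against MC was -0.20 (SE 0.13, adjusted p = 0.580), and -0.13 without MC1.

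The TET enzymes, which oxidize methylcytosine in DNA, did not separate between groups in any comparison. Tet2 ran from 12.5 to 18.5 CPM over the 12 tumours and Tet3 from 47.3 to 61.0 CPM. Their log2 changes for altitude averaged were 0.01 (adjusted p = 0.964) for Tet2 and -0.07 (adjusted p = 0.661) for Tet3, and for IOX2 averaged -0.04 (adjusted p = 0.936) and 0.05 (adjusted p = 0.881) in the same order. Tet1 had 0.761 to 2.19 CPM, and its low counts leave a 95% interval of -0.75 to 0.39 for altitude averaged. The repair enzymes Alkbh2 and Alkbh3, which remove alkyl groups from DNA, ran from 6.83 to 11.1 CPM and from 13.6 to 17.5 CPM.

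The collagen hydroxylases work in the endoplasmic reticulum on new collagen chains, and prolyl 4-hydroxylation is what keeps the collagen triple helix stable at body temperature. In HI against MI, 7 of 9 were below 0 with a median log2 change of -0.14, and 2 had an unadjusted p under 0.05, both lower in HI (8.43% of all genes with lower values). In HC against MC, 5 of 9 were below 0 and the median was -0.07. None of the 9 was called. P3h1, which hydroxylates a particular proline of fibrillar collagen in a complex with Crtap and Ppib, had 31.1, 35.5 and 32.4 CPM in HI tumours, 42.0, 40.0 and 32.0 in HC, 50.4, 40.7 and 37.1 in MI, and 42.1, 40.8 and 38.7 in MC. The HI tumours lay below the MI tumours without overlap, and MI1 was the highest library of all. The log2 change was -0.37 (SE 0.13, adjusted p = 0.253) in HI against MI and -0.23 (SE 0.09, adjusted p = 0.216) for altitude averaged. P3h3, a relative that works with Plod1, had 36.0, 34.7 and 40.6 CPM in HI tumours, 45.0, 41.6 and 36.3 in HC, 48.9, 42.9 and 42.4 in MI, and 43.0, 42.7 and 45.2 in MC. Here too HI lay below MI without overlap, with MI1 the highest, and the log2 change was -0.27 (SE 0.10, adjusted p = 0.270) in HI against MI and -0.18 (SE 0.07, adjusted p = 0.219) for altitude averaged. P3h2, which acts mainly on basement membrane collagen, had 8.72, 7.18 and 9.14 CPM in HI tumours, 5.78, 7.83 and 8.42 in HC, 7.68, 6.65 and 5.93 in MI, and 6.93, 5.58 and 5.98 in MC. HI overlapped with MI and HC with MC, and its log2 change for altitude averaged was 0.28 (SE 0.13, adjusted p = 0.286), of the opposite sign to those of P3h1 and P3h3.

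The catalytic chains of prolyl 4-hydroxylase had their highest values in different tumours. P4ha3 had 12.7, 9.97 and 11.0 CPM in HI tumours, 17.6, 14.6 and 12.2 in HC, 17.6, 12.1 and 14.0 in MI, and 12.5, 12.3 and 9.92 in MC. HC1 and MI1 were the highest, and HI overlapped with HC and with MI. The log2 change was -0.40 (SE 0.18, adjusted p = 0.964) in HI against HC, 0.35 (SE 0.18, adjusted p = 0.458) in HC against MC, and -0.73 (SE 0.25, adjusted p = 0.596) for the interaction. Without HC1 the change was -0.26 in HI against HC and 0.21 in HC against MC. With the replicate number as a block over all 12 libraries, P4ha3 had the smallest p of the class in HC against MC (adjusted p = 0.309). Its log2 change there was 0.35. The block also covers HI and MI, whose numbers did not meet the pairing rule given below. It is thus not a pairing of HC with MC alone. P4ha3 was higher in HC than in MC in each of the 3 same-numbered pairs, which was seen after its values were known. The share of all genes with 3 such pairs was not counted. P4ha2 had 44.5, 40.6 and 42.8 CPM in HI tumours, 36.9, 52.1 and 43.4 in HC, 48.2, 55.1 and 44.4 in MI, and 48.1, 50.5 and 50.0 in MC. HI lay between 40.6 and 44.5 CPM, and MI3 was just below its top. The log2 change for altitude averaged was -0.19 (SE 0.08, adjusted p = 0.285). P4ha1 had 208, 209 and 213 CPM in HI tumours, 159.9, 240.0 and 251 in HC, 208, 261 and 187 in MI, and 225, 263 and 214 in MC. Its HI tumours were within 208 to 213 CPM, inside the ranges of HC and MI and just below the lowest MC tumour, MC3 at 214 CPM. Its log2 change was -0.06 (adjusted p = 0.877) in HI against MI, -0.11 (adjusted p = 0.864) in HC against MC, -0.05 (adjusted p = 0.998) in HI against HC and -0.10 (adjusted p = 0.809) in MI against MC.

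Of the lysyl hydroxylases, which prepare collagen for cross-linking, Plod2 had the smallest p of the class in MI against MC. It had 126, 88.9 and 95.9 CPM in HI tumours, 78.8, 117 and 96.4 in HC, 106, 99.9 and 137 in MI, and 94.0, 89.8 and 69.1 in MC. All MI tumours lay above all MC tumours, MI3 was the highest library and MC3 the lowest, and HI and HC overlapped with both. The log2 change was 0.44 (SE 0.19, adjusted p = 0.492) in MI against MC and 0.27 (SE 0.13, adjusted p = 0.759) for IOX2 averaged, while in HI against HC it was 0.09 (SE 0.19, adjusted p = 0.998). Plod1 had 122, 106 and 96.0 CPM in HI tumours, 95.1, 115 and 112 in HC, 108, 106 and 95.4 in MI, and 106, 119.7 and 113 in MC, with all groups overlapping and log2 changes of -0.0011 (adjusted p = 0.996) for altitude averaged and -0.07 (adjusted p = 0.845) for IOX2 averaged. Plod3 ran from 147 to 187 CPM, and its HI tumours lay below its HC tumours without overlap, by 165 CPM in HI1 against 168 CPM in HC1. Its log2 change in HI against HC was -0.15 (SE 0.09, adjusted p = 0.964). Phyh, the lipid oxygenase, ran from 51.7 to 78.8 CPM with MI3 at the top, and its log2 change was -0.13 (adjusted p = 0.504) for altitude averaged and 0.02 (adjusted p = 0.967) for IOX2 averaged.

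**Figure D4:**
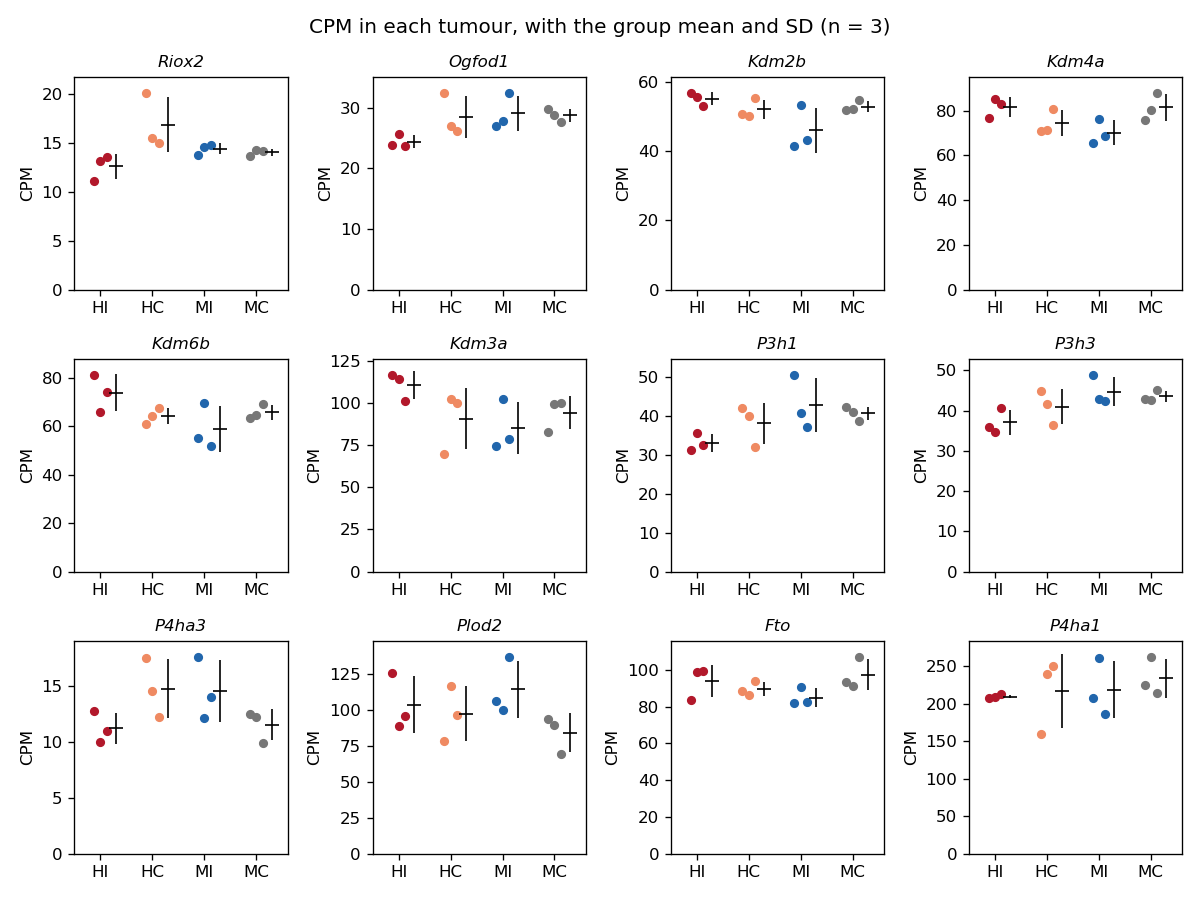
CPM of 12 of the genes in each tumour (coloured points) with the group mean and SD (black, n = 3), in the order HI, HC, MI and MC and with axes from 0. The HI tumours of Ogfod1 lie below the 9 others, HC1 is the highest point of Riox2, and the HI tumours of P4ha1 lie close together inside the ranges of HC and MI.

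The substrates of these enzymes and their partners in collagen folding were set beside them. Of 14 collagen genes, 0 were called in any comparison, 13 were below 0 in HI against MI (median log2 change -0.19), 13 were above 0 in HC against MC (median 0.24), 14 were below 0 in HI against HC (median -0.25) and 13 were above 0 in MI against MC (median 0.15). Their summed level was 12363, 11817 and 11450.4 CPM in HI tumours, 17894, 12929 and 11663 in HC, 15691, 11197 and 13695 in MI, and 13973, 12006 and 10008 in MC. HC1 and MI1 were the highest, as they were for the fibroblast markers and for P4ha3, and MI1 was also the highest for P3h1, P3h3 and Plod3. The fibroblast markers include the collagen genes Col1a1 and Col1a2, so the collagen and marker sums are not independent. HC1 was the lowest library for P4ha1, P4ha2 and Plod1 and the next to lowest for Plod2 and P3h2, so the 9 hydroxylases did not follow the fibroblast markers alike. The 6 endothelial markers were lower in HI against MI (median log2 change -0.59, 0 called). All 6 were without overlap, against 6.61% of all genes with lower values. In this comparison most collagens and 7 of 9 hydroxylases were below 0. So were all 7 fibroblast markers (median -0.27, 2 without overlap) and 5 of 6 macrophage markers (median -0.19), while 6 of 7 epithelial markers were above 0. The part of any of these cell types in the values of these hydroxylases was not tested. Of 10 partners, 0 were called, and 4 had an unadjusted p under 0.05 in HI against MI, all lower in HI (8.43% of all genes). Among them were Serpinh1, the collagen chaperone HSP47, with a log2 change of -0.41 (adjusted p = 0.193), and P3h4, which forms a complex with P3h3 and Plod1, with -0.54 (adjusted p = 0.214). DESeq2 called both.

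The sequence around the start was read for the members known as HIF targets. The question of altitude and of a HIF hydroxylase inhibitor turns on them. HIF binds a core of ACGTG or GCGTG, and the window from 250 bases before to 50 bases after the start was read from RefSeq for build GRCm38.p6, an older build than the GRCm39 of the counts. Of the 38 members 30 had a window. Either core, on either strand, was present in 17 of those 30 (56.7%) and in 11848 of all 27025 genes with a window (43.8%). It was present in 5 of the 6 HIF-target members with a window and absent in Kdm4c. Plod2 and Kdm4b had no window. Only the windows of P4ha1, P4ha2 and Kdm3a, all with a match, are printed here. A match of these 5 letters is a description and not a binding site. The windows of P4ha1 (chr10:59323046-59323345, plus strand), P4ha2 (chr11:54100674-54100973, plus strand) and Kdm3a (chr6:71632868-71633167, minus strand) follow, 5′ to 3′ on the strand of the gene, with every match of either core on either strand in capitals.
P4ha1: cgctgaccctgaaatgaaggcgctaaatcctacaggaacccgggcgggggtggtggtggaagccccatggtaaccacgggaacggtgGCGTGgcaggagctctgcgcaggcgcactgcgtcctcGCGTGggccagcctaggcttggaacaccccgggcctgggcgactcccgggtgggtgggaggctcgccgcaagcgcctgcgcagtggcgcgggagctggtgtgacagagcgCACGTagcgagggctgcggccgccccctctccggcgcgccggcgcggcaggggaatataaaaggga
P4ha2: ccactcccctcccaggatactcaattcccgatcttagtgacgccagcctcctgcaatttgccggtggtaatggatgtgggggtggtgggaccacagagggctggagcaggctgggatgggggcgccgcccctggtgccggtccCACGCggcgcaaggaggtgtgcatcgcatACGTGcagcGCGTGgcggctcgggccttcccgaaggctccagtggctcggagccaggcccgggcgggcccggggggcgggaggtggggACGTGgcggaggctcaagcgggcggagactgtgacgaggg
Kdm3a: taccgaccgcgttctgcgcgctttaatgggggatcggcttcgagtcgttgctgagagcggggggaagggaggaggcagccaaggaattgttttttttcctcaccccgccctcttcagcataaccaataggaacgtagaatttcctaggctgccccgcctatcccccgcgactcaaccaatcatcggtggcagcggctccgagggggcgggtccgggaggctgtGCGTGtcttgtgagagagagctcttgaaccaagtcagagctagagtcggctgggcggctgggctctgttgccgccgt

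The windows of P4ha1 and P4ha2 held 1 and 2 matches of ACGTG and 2 matches of GCGTG each, and that of Kdm3a held 1 match of GCGTG. Of the 8 HIF-target members, 0 were called in any comparison, and their median log2 change was -0.03 in HI against MI, -0.06 in HC against MC, 0.04 in HI against HC and -0.07 in MI against MC. Kdm3a, which erases a mark of silent chromatin from histone H3, had 117, 114 and 102 CPM in HI tumours, 70.1, 102 and 100.2 in HC, 74.4, 103 and 78.7 in MI, and 83.1, 99.7 and 100.1 in MC. The HI tumours held the 2 highest values, and MI2 lay above HI3. Its log2 change was 0.38 (SE 0.16, adjusted p = 0.305) in HI against MI, the only unadjusted p under 0.05 among the 8 there. Kdm4b had 58.5, 53.4 and 49.2 CPM in HI tumours, 37.6, 49.1 and 54.3 in HC, 42.6, 56.3 and 39.3 in MI, and 42.6, 46.8 and 52.1 in MC, with all groups overlapping and a log2 change of 0.22 (SE 0.16, adjusted p = 0.491) in HI against MI. P4ha1, P4ha2, Plod1 and Plod2, by contrast, had log2 changes of -0.06, -0.21, 0.07 and -0.14 in HI against MI.

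HIF target genes outside the class give the setting for these values. Of 14 such genes 0 were called in any comparison, and in HI against MI 7 had an unadjusted p under 0.05, all higher in HI, against 6.77% of all genes with higher values. The median log2 change of the 14 was 0.48 in HI against MI, 0.08 in HC against MC, 0.31 in HI against HC and -0.11 in MI against MC. Car9, a carbonic anhydrase, had 0.83 (adjusted p = 0.256) in HI against MI, and Slc2a1, the glucose transporter GLUT1, had 0.85 (adjusted p = 0.258). The summed level of the 14 was 6238, 4607 and 4074 CPM in HI tumours, 2762, 4712 and 5014 in HC, 3401, 4361 and 3075 in MI, and 3555, 4191 and 3943 in MC. The 4 tumours with the lowest sums, HC1, MI3, MI1 and MC1, were also the 4 lowest for Kdm3a, at 70.1 CPM in HC1, 78.7 CPM in MI3, 74.4 CPM in MI1 and 83.1 CPM in MC1. They were also the 4 lowest for Kdm4b. The same 4 were lowest for Kdm6b, which is not among the members known as HIF targets. They were not the 4 lowest for P4ha1, P4ha2, Plod1, Plod2, Kdm4c or Kdm5b. HC1 and MI1 were each the lowest library for 11 of the 38 members. The match was seen after the values were known and is given as a description.

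Other genes of the same enzyme class, not on the list, were looked at as well. Of 27 such dioxygenases 26 were in the table and 21 were tested, and 0 were called in any comparison. Their median log2 change was -0.13 in HI against MI with 8 above 0, -0.10 in HC against MC with 8 above 0, 0.01 in HI against HC with 12 above 0, and -0.01 in MI against MC with 10 above 0. The smallest adjusted p was that of Hr, a histone demethylase known for its part in the hair cycle, with a log2 change of 0.60 (SE 0.16, adjusted p = 0.105) for altitude averaged. DESeq2 called it. Hr was at 65.5 CPM in HI1 and 24.8 to 43.3 CPM in the other 11 tumours, and the change was 0.43 without HI1. The 6 markers of skin keratinocytes were highest in HI1, as Hr was, and in HC3. Their sums there were 20.3 and 19.8 CPM, against 3.73 to 9.43 CPM in the others. Hr had 1738 counts in HI3, where the markers summed to 6.17 CPM, and 1466 counts in HC3. Of the 6 markers, 4 had a median under 1 CPM. The 4 that passed the filter and were tested had a median log2 change of 2.00 for altitude averaged, with 0 called. Their part in the value of Hr was not tested. Alkbh7, a mitochondrial relative of Alkbh5, had -0.53 (SE 0.17, adjusted p = 0.287) in HC against MC.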

How the data were processed

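RNA of 12 tumours, 1 per mouse, was measured. The submitters' processing notes name HISAT2 2.1.0, HTSeq 0.11.2, fastp 0.20.1, R 3.5.1 and DESeq2 1.22.2, without their roles, and mouse build GRCm39. Neither the gene annotation nor the strand setting is given in the sources used here. Raw counts of 35434 genes (24312 with at least a single count) and FPKM values for them were deposited by the authors. Set against the counts, every FPKM above 0 (100%) gave a gene length that was whole within 0.01 base. The tables had 0 per-sample columns that match no sample.

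The count test was edgeR 4.0.16 in R 4.3.3, with TMM factors of 0.925 to 1.03, filterByExpr and a quasi-likelihood fit that gave each group its mean and used all 12 libraries. A gene was called at a p under 0.05 after Benjamini-Hochberg adjustment across the 15269 genes tested, and every adjusted p comes from that fit unless another tool is named. An exact test of 3 tumours against 3 could not give a p below 0.1, so no gene was tested alone. A floor of 3 counts equals 0.0728 to 0.0917 CPM per library and covers counting error only. Alternatives were DESeq2 1.42.0, its size factors in edgeR, no filter, a filter of 1 CPM in 3 libraries, limma-voom and limma 3.58.1 on log2(FPKM + 0.1) and log2(FPKM + 1), a replicate block, only the 2 groups compared, and each library left out. On simulated counts for HC against MC with 15136 genes, the test recovered 62.2% of the 98 tested genes changed by 1 and 81.8% of the 99 changed by 2 on the log2 scale, with 6 false calls.

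Same-numbered libraries of HC and MC had correlations of 0.278, 0.153 and 0.209 in their deviations. This met a rule for pairing that needs every correlation over 0.1. The rule was not met in HI and MI (0.257, 0.0717 and 0.131), MI and MC (0.313, -0.0904 and -0.104) or HI and HC (-0.0208, -0.0745 and 0.244). Differently numbered libraries of HC and MC had -0.247 to 0.0185. In other comparisons some of these reached more than any matched HC and MC pair, with 0.424 for MI2 with MC3 and 0.286 for HI2 with HC1. Meeting the rule therefore does not show that the samples were paired. The labels call the tumours biological replicates and do not say what a number stands for, so any pairing rests on these correlations alone.

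Members with the smallest p in each comparison are named with values in each tumour (5 per comparison and 3 for the interaction), and so are members known as HIF targets. Other members named for their values were chosen after these were seen. The members and the 20 lists beside them were chosen with earlier results of these data known.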

Additional observations from a re-analysis of the deposited data

How the results depend on the processing

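The count of members called stayed at 0 of 38 in every comparison with DESeq2, DESeq2 size factors, either other filter, limma-voom, both FPKM fits, the replicate block and only the 2 groups compared. Of the libraries left out, only MI2 changed it, to 2 members in HI against MI (range 0 to 2; Kdm2b and Kdm6b, as given in the report), while the range was 0 to 0 in the 6 other comparisons. Of the 33 log2 changes named for their p, 0 changed sign in any alternative. Of the 36 others printed, 12 changed sign in at least 1 alternative, each with a size of at most 0.14 and none called, and 5 were called in 1, none of them a member (Car9 without MI2; P3h4, Serpinh1, Dnmt1 and Hr with DESeq2). Of the members' medians, 130 values stayed within the spread and 14 moved by more.

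The count of all genes called depended on the fit. DESeq2 called 376 in HI against MI (edgeR 0), 311 in HC against MC (0), 19 in HI against HC (0), 22 in MI against MC (4), 855 for altitude averaged (76), 11 for IOX2 averaged (6) and 32 for the interaction (0). Without a filter, edgeR called 16 in HI against MI, 2 in HC against MC and 166 for altitude averaged. DESeq2 size factors gave 1 and the filter of 1 CPM gave 2 in HI against MI. With only the 2 groups compared, edgeR called 63 in HC against MC and 2 in MI against MC. Limma-voom called 20 for altitude averaged and 0 in MI against MC, and log2(FPKM + 1) called 14 for altitude averaged. The replicate block gave 13 in HC against MC, where the numbers met the rule for pairing, and 3 in HI against HC and 155 for altitude averaged. It called 0 members, and the smallest adjusted p of a member with the block was 0.169. With each library left out in turn, the counts ran from 0 to 520 in HI against MI, 0 to 40 in HC against MC, 0 to 0 in HI against HC, 0 to 6 in MI against MC, 2 to 339 for altitude averaged, 4 to 6 for IOX2 averaged and 0 to 2 for the interaction. The causes were not tested. With 3 mice a group, a count of 0 does not mean that no member changed. The intervals in the report give the range of change gene by gene, without adjustment for the number of genes, whereas a call needs an adjusted p. In the simulation of HC against MC, 62.2% of the 98 tested genes changed by 1 on the log2 scale were recovered.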

Other observations

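Genes that make or compete with the shared substrate of these enzymes were looked at beside them, and 0 of 21 were called in any comparison. For IOX2 averaged, 17 of the 21 were below 0, with a median log2 change of -0.09. Among them were subunits of succinate dehydrogenase and fumarase, whose substrates are known to inhibit the class: Sdhc had -0.17 (adjusted p = 0.759) and Fh1 had -0.13 (adjusted p = 0.759). In HC against MC, Idh1, which makes 2-oxoglutarate in the cytosol, had a log2 change of -0.40 (adjusted p = 0.249), whereas Psat1 and Gpt2, transaminases that release 2-oxoglutarate, had 0.68 (adjusted p = 0.270) and 0.72 (adjusted p = 0.304), and these 3 genes were among the 7 of 21 whose HC and MC tumours did not overlap, as 21.7% of all genes did not.

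Of 13 enzymes and readers of DNA, RNA and histone methylation without the dioxygenase fold, 0 were called. Dnmt1, the maintenance DNA methyltransferase, had a log2 change of 0.28 (adjusted p = 0.117) for altitude averaged (called by DESeq2), and its 6 HI and HC tumours all lay above its 6 MI and MC tumours, which 1.95% of all genes did in either direction. Of 8 tested genes of ascorbate and iron supply, the cofactors of the class, 0 were called in any comparison. For altitude averaged their median log2 change was 0.10 with 7 above 0, as 46.2% of all genes were. The changes ran from -0.76 to 0.77. At an unadjusted p under 0.05, 3 were higher and 1 lower (50%), against 17.3% of all genes in either direction. The smallest adjusted p was 0.0779.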
